A study of Mus musculus with 4 samples.

Results

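RNA-seq counts of 9 genes, *Eya1*, *Eya2*, *Eya3*, *Eya4*, *Six2*, *Six4*, *Six5*, *Dach1* and *Dach2*, which belong to the Eya, Six- and Dach-family network, were compared between sorted kidney cells of control and *Eya1*cKO mouse embryos. The 9 genes were chosen by symbol, and all of them were found among the 52636 genes counted by the authors. Tamoxifen was given to pregnant females by oral gavage, and kidneys were taken 48 h after the first dose, at E12.5–E12.75. Control embryos are given as *Eya1*CreER/+ with the tdTomato reporter, and *Eya1*cKO embryos as *Eya1*CreER/+ with tdTomato and Eya1 fl/fl. The mice were of mixed strain, C57BL/6J with 129/Sv. CreER was expressed from *Eya1* in both genotypes, so that tdTomato marked cells of the *Eya1* lineage and the controls carried the CreER allele and received tamoxifen too. Each of the 4 libraries, 2 per genotype, was made from 5000 tdTomato+ cells sorted by FACS. According to the labels, the kidneys of a genotype numbered 6 and the pregnant females 4, numbers that the methods give differently. Suspensions were pooled ahead of sorting, and a genotype's libraries are separate portions of cells sorted together, so that the p-values below measure the spread between such portions.

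The Eya, Six- and Dach-family proteins form a network that was first described in eye development of the fly and that acts, with Pax proteins, in many mammalian organs. Six-family proteins bind DNA through a homeodomain, Eya proteins do not bind DNA themselves but join Six-family proteins as coactivators and also act as phosphatases, and Dach proteins, relatives of Ski, mostly act as corepressors. In the kidney *Eya1* is required to form the metanephric mesenchyme, and both *Eya1* and *Six2* are required to keep nephron progenitor cells (NPCs) from differentiating too early.

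Because the members of a family are related in sequence, it was first examined whether single reads could belong to more than one of them. The stretches below show the most alike coding parts of the Six-family genes and of the Eya genes, 60 bases each on the gene's own strand, with capitals for bases identical in all members shown. The Six-family stretch lies in the homeobox, where it encodes the helix that contacts DNA, on chr17:85687406-85687465 (minus strand) for *Six2*, chr12:73112362-73112421 (minus strand) for *Six4* and chr7:19095334-19095393 (plus strand) for *Six5* of GRCm38:
Six2: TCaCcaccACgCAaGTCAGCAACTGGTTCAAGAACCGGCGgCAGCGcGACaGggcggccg
Six4: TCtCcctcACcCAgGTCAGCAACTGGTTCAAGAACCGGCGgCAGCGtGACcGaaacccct
Six5: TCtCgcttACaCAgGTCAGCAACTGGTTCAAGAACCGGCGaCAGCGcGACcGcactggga

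The Eya stretch encodes part of the conserved C-terminal Eya domain, through which Eya proteins bind their partners, on chr1:14184386-14184445 (minus strand) for *Eya1*, chr2:165763761-165763820 (plus strand) for *Eya2*, chr4:132707027-132707086 (plus strand) for *Eya3* and chr10:23116590-23116649 (minus strand) for *Eya4*:
Eya1: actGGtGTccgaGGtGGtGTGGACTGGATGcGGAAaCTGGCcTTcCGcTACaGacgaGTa
Eya2: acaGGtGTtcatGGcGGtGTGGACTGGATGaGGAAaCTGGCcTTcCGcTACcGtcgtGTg
Eya3: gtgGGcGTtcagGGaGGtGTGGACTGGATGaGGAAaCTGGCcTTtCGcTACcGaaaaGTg
Eya4: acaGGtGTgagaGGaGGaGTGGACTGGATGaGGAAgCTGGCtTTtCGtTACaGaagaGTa

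Of the 60 positions, 42 were identical in the 3 Six-family genes and 39 in the 4 Eya genes. The longest run of bases without a mismatch was 32 between *Six2* and *Six4* coding sequences and 29 between any pair of Eya genes (*Eya2* and *Eya3*), shorter than the 75-base reads. Over the aligned coding sequences, identity ran from 65.6% to 72.0% among the Eya genes and from 66.8% to 77.4% among the Six-family genes, and was 68.0% for *Dach1* and *Dach2*. No 75-base stretch of an annotated transcript of a member was found in another member. In 7 of the 9 genes none was found in a transcript of any other gene, and in *Six2* and *Six4* 0.0485% and 0.174% of the stretches were. No exon of the 9 genes overlapped an exon of another gene in GENCODE M21 on either strand.

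The libraries held 17457452 to 37999342 gene counts each, fewer in *Eya1*cKO than in the controls, and 3 counts, taken as the limit of detection, stand for 0.0801 to 0.171 CPM (counts scaled to the TMM-adjusted library total). These limits cover counting error only. All 9 genes passed the low-count filter of edgeR and were tested among 19041 genes with its quasi-likelihood test and Benjamini-Hochberg adjustment. A log2 fold change gives *Eya1*cKO relative to control, with its standard error (SE). Reads lying on no gene made up 12.9% to 13.9% of all reads in the controls and 20.9% to 22.7% in *Eya1*cKO, unaligned reads 6.32% and 6.69% against 12.9% and 12.7%, and their part in the results was not tested. In the nephron progenitor list (*Cited1*, *Osr1*, *Pax2*, *Sall1*, *Meox1*, *Wt1*, *Uncx*, *Gdnf*), all 8 genes had counts in each library, with summed levels of 1984 and 2023 CPM in the controls against 805 and 847 CPM in *Eya1*cKO. Of these 8, 7 were called lower, where 4.41% of all genes tested were. *Wt1*, also a podocyte gene, had 374 and 385 CPM in the controls and 415 and 476 in *Eya1*cKO and did not pass. All 8 genes are also in the list of network genes below, so the same 7 calls return there.

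*Eya1*, *Eya2* and *Six2*, 3 of the 9 genes, had an adjusted p under 0.05 and were lower in *Eya1*cKO, where 4.41% of all genes tested were called lower. None was called higher, where 5.15% of all genes were. Without adjustment, edgeR gave a p under 0.05 in 6 lower genes and 1 higher gene, against 14.6% and 14.2% of all genes. DESeq2 called 3 lower and 0 higher after adjustment, against 6.64% and 9.29% of all genes. For both *Eya1*cKO libraries the level was below that of either control in 6 of the 9 genes, which held for 30% of all genes, and above either control in 1 gene, which held for 25.3% of all genes. The median log2 fold change was -0.54 over the 9 genes and 0.02 over all genes tested. Of the 3 called genes, *Eya1* is the deleted gene itself.

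**Figure D1:**
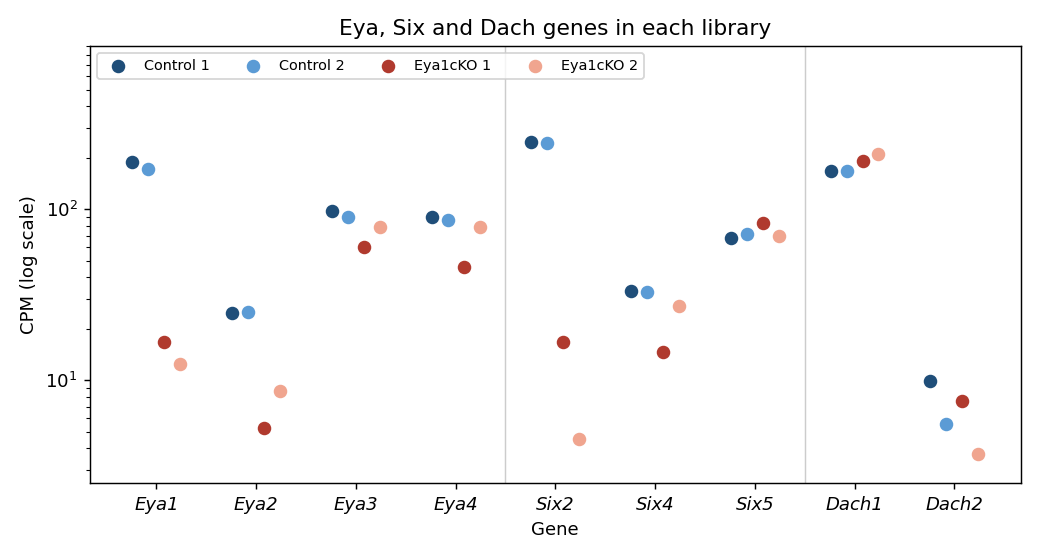
CPM of the 9 genes on a log scale, 1 point per library (blue, control 1 and 2; red, *Eya1*cKO 1 and 2), with the families separated by grey lines. *Eya1* and *Six2* fell from 171–248 CPM in the controls to 4.56–16.7 CPM in *Eya1*cKO, whereas the libraries of *Six5* and *Dach2* overlapped.

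*Eya1*, the targeted gene, on chromosome 1 from 14168954 to 14310235 (minus strand, GRCm38), was examined first as a check of the labels. Its reads numbered 6612 and 6420 in the control libraries against 377 and 219 in *Eya1*cKO 1 and 2, that is 189 and 171 CPM against 16.7 and 12.5 CPM. Both *Eya1*cKO libraries were far below both controls, at 9.25% and 6.92% of the control mean, as their labels state. The log2 fold change was -3.60 (SE 0.18, 95% interval -4.03 to -3.18, adjusted p = 0.00019 in edgeR), and it passed the threshold in all 13 alternatives. The counts sum all exons, so that transcripts of the CreER allele, of undeleted floxed alleles and of deleted alleles cannot be told apart.

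*Eya2*, a paralogue that can also act as a coactivator of Six-family proteins, was the least abundant Eya gene in the controls. It lies on chromosome 2 from 165595032 to 165771727 and had 859 and 943 reads in the controls against 119 and 152 in *Eya1*cKO, or 24.6 and 25.2 CPM against 5.27 and 8.66 CPM. Both *Eya1*cKO libraries were below both controls, and *Eya1*cKO 2 kept more of the control level (34.8%) than *Eya1*cKO 1 (21.2%), the opposite order to *Eya1*. *Eya2* fell by a log2 fold change of -1.88 (SE 0.36, 95% interval -2.73 to -1.03, adjusted p = 0.023 in edgeR). This call was lost without control 1 (-1.92, adjusted p = 0.46) or without control 2 (-1.88, adjusted p = 0.51), and with a replicate block (adjusted p = 0.081). Its adjusted p over all alternatives lay between 2.2e-05 and 0.51.

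*Eya3*, which is expressed in many tissues, lies on chromosome 4 from 132638987 to 132724765 and had 97.8 and 90.6 CPM in the controls against 60.4 and 79.2 CPM in *Eya1*cKO. *Eya4*, known for its role in hearing and in the heart, lies on chromosome 10 from 23102963 to 23350786 and had 90 and 86.5 CPM in the controls against 45.9 and 78.5 CPM in *Eya1*cKO. For both, the *Eya1*cKO libraries were below the controls without overlap, but *Eya1*cKO 2 was close to the controls, at 84.1% and 88.9% of their mean, and *Eya1*cKO 1 was not, at 64.1% and 52.1%. Neither passed the threshold, with log2 fold changes of -0.45 (SE 0.16, 95% interval -0.83 to -0.07, adjusted p = 0.12 in edgeR) and -0.54 (SE 0.22, 95% interval -1.07 to -0.01, adjusted p = 0.17 in edgeR). When *Eya1*cKO 2 was left out, *Eya3* was at -0.66 (adjusted p = 0.00042) and *Eya4* at -0.96 (adjusted p = 2.3e-05). That fit holds 1 *Eya1*cKO library and takes its spread from the controls, and over all genes it called 3482 lower in place of 839.

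*Six2*, the homeodomain factor that marks NPCs, kept the smallest share of its control level among the 9 genes. It is a short gene on chromosome 17 from 85684277 to 85688274 (minus strand), with 8655 and 9150 reads in the controls and 377 and 80 in *Eya1*cKO, or 248 and 244 CPM against 16.7 and 4.56 CPM. The controls were nearly equal, whereas the *Eya1*cKO libraries kept 6.78% and 1.85% of the control mean. The log2 fold change was -4.44 (SE 0.27, 95% interval -5.08 to -3.79, adjusted p = 0.00043 in edgeR). It passed in all 13 alternatives, but its size depended on the *Eya1*cKO library used, with -5.76 without *Eya1*cKO 1 and -3.90 without *Eya1*cKO 2. In a tissue of mixed cells, fewer cells of a type and less RNA per cell cannot be told apart.

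The 230 bases before the annotated *Six2* gene, on chr17:85688275-85688504 of GRCm38 (RefSeq sequence, gene strand), are shown because *Six2* fell most:
Six2: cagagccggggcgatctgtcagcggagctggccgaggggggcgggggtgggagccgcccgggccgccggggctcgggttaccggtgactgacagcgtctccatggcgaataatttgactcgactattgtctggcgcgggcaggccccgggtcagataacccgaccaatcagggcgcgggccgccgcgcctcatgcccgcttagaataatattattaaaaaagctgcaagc
This stretch has a G+C content of 64.8% and 24 CpG dinucleotides. Promoter sequences were found for 7 of the 9 genes, not for *Eya1* or *Eya2*. In the 250 bases before each RefSeq start, both strands were searched for TCAGGTTTC (the MEF3 element bound by Six-family proteins), TGATAC (a core of Six-family sites) and TCAGCACC and GGACAG, parts of the element bound by the repressor REST. They occur in 0.387%, 4.64%, 1.33% and 18.7% of 32817 promoter windows. *Six2*, *Eya3*, *Eya4*, *Dach1* and *Dach2* held none of these letters. Of the 7 genes, *Six4* alone held the MEF3 letters, 99 bases before a RefSeq start and inside the longer GENCODE gene, shown here with 10 bases on either side and the element in capitals (its reverse complement on the gene strand, chr12:73113326-73113354):
Six4: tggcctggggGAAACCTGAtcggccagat
GGACAG was found only in *Six5* among the 7, 69 bases before its start.

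*Six4*, a larger Six-family gene expressed in many embryonic tissues, lies on chromosome 12 from 73099609 to 73113456. It had 1163 and 1234 reads in the controls against 333 and 473 in *Eya1*cKO, or 33.3 and 33.0 CPM against 14.7 and 27.0 CPM. Again *Eya1*cKO 2 was nearer to the controls, and both *Eya1*cKO libraries were below them. The log2 fold change of -0.72 (SE 0.30, 95% interval -1.41 to -0.02, adjusted p = 0.16 in edgeR) did not pass, and it was -1.18 (adjusted p = 0.00038) in the same fit without *Eya1*cKO 2.

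*Six5*, best known as the neighbour of the myotonic dystrophy kinase gene, lies on chromosome 7 from 19094594 to 19098549. It had 68.0 and 71.7 CPM in the controls against 82.6 and 69.8 CPM in *Eya1*cKO, and the genotypes overlapped. Its log2 fold change was 0.14 (SE 0.14, 95% interval -0.21 to 0.48, adjusted p = 0.58 in edgeR), and -0.01 without *Eya1*cKO 1.

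*Dach1*, the main Dach gene of these cells, lies on chromosome 14 from 97786853 to 98169765. It had 5867 and 6253 reads in the controls against 4323 and 3708 in *Eya1*cKO, or 168 and 167 CPM against 191 and 211 CPM. It was the only one of the 9 genes with both *Eya1*cKO libraries above both controls, at 114% and 126% of the control mean. This did not pass the threshold (log2 fold change 0.26, SE 0.09, 95% interval 0.04 to 0.49, adjusted p = 0.13 in edgeR), except without *Eya1*cKO 1 (0.32, adjusted p = 0.0031). *Dach2*, its X-linked paralogue on chromosome X from 113297510 to 113836386, had few reads, 344 and 208 in the controls and 171 and 65 in *Eya1*cKO, and the genotypes overlapped. Replicates of *Dach2* differed by log2 ratios of -0.83 and -1.03 (library 2 over library 1), so that its log2 fold change of -0.38 has a wide 95% interval of -1.74 to 0.98 (SE 0.58, adjusted p = 0.71 in edgeR). It was 0.06 without control 1.

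**Figure D2:**
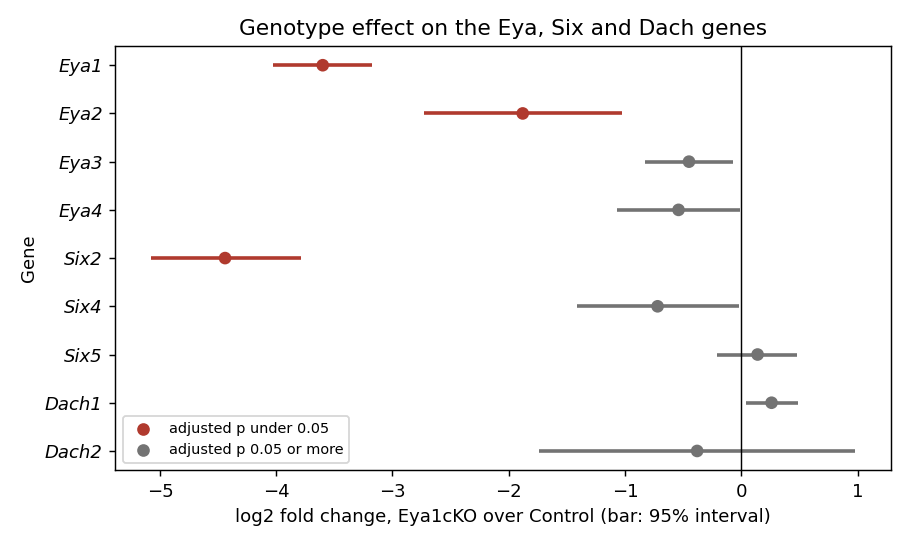
Log2 fold change of each gene, *Eya1*cKO over control, with its 95% interval in edgeR's fit; red marks an adjusted p under 0.05. *Eya1*, *Eya2* and *Six2* lie at -3.60, -1.88 and -4.44, and the other 6 genes between -0.72 and 0.26.

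To compare levels between genes, CPM were divided by the length of each gene's exons in kilobases. In the controls the order of mean CPM per kilobase (n = 2) was *Six2* (116), *Six5* (23.2), *Eya1* (23.1), *Dach1* (22.9), *Eya3* (16.7), *Eya4* (9.37), *Eya2* (8.40), *Six4* (3.05) and *Dach2* (0.781). *Six5*, *Eya1* and *Dach1* did not differ beyond the spread of their libraries (22.6 and 23.9, 24.2 and 22.0, and 23.0 and 22.8 CPM per kilobase), and the other neighbours in this order did not overlap. This near equality depends on the length used. The exons of *Six5*, *Eya1* and *Dach1* span 3007, 7808 and 7317 bases, and their coding sequences 2157, 1773 and 2253 bases. *Six2* ranked 256th among 19015 tested genes with a known length, and *Eya1* 2409th. In *Eya1*cKO the order was *Dach1* (27.5), *Six5* (25.3), *Eya3* (12.4), *Eya4* (6.61), *Six2* (5.01), *Eya2* (2.35), *Six4* (1.92), *Eya1* (1.87) and *Dach2* (0.571), and *Six2* ranked 8631st and *Eya1* 12275th. Here *Dach1* overlapped with *Six5*, and *Six2* with each of *Eya4*, *Eya2* and *Six4*, and *Eya2*, *Six4* and *Eya1* overlapped with each other, whereas *Six5* and *Eya3*, *Eya3* and *Eya4*, and *Eya1* and *Dach2* did not overlap.

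The make-up of both the Eya and the Six-family genes differed between the genotypes. *Eya1* was the most abundant Eya gene per kilobase in the controls, with 40.8% and 39.4% of the family sum, and made up 11.0% and 5.95% in *Eya1*cKO. *Eya3* made up 29.1% and 28.8% in the controls and 54.9% and 52.2% in *Eya1*cKO, although its own level was not higher there. The summed level of the 4 Eya genes was 59.4 and 55.7 CPM per kilobase in the controls and 19.5 and 26.9 in *Eya1*cKO. Among the 3 Six-family genes counted here, *Six2* took 82.0% and 81.1% of the sum in the controls and 21.5% and 7.73% in *Eya1*cKO, where *Six5* took 74.8% and 83.4%. *Dach1* took at least 95.8% of the Dach sum in every library. In these shares a fall of one gene raises those of the others, and with 2 libraries against 2 an exact two-sided permutation test cannot give a p below 0.33.

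**Figure D3:**
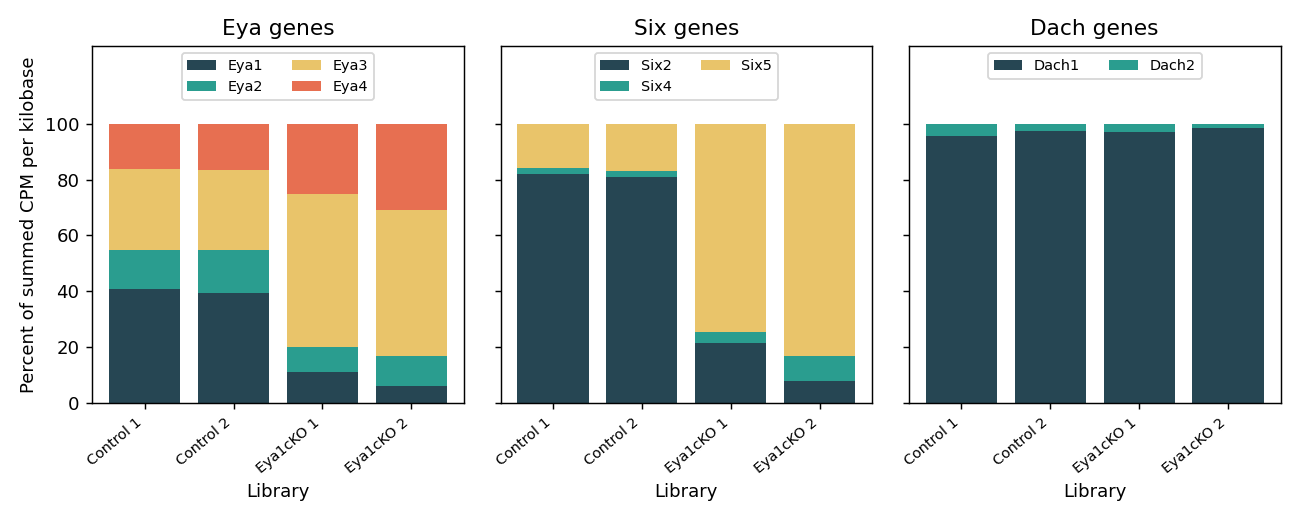
Share of each gene in the summed CPM per kilobase of its family, in percent, as stacked bars for the 4 libraries. *Eya1* and *Six2* make up 39.4% to 40.8% and 81.1% to 82.0% in the controls and 5.95% to 11.0% and 7.73% to 21.5% in *Eya1*cKO, while *Dach1* stays above 95%.

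The *Eya1*cKO libraries differed from each other more than the controls did. The median absolute log2 ratio of library 2 to library 1 over all genes tested was 0.18 in the controls and 0.55 in *Eya1*cKO. *Six2* had the largest such ratio of the 9 genes in *Eya1*cKO (-1.87), followed by *Dach2* (-1.03), and the ratio was positive for *Six4* (0.87), *Eya4* (0.77), *Eya2* (0.72), *Eya3* (0.39) and *Dach1* (0.14). *Six2* and *Eya1* were thus lower in *Eya1*cKO 2 than in *Eya1*cKO 1, whereas *Eya2*, *Eya3*, *Eya4* and *Six4* were higher. The ratios of *Eya1* (-0.42), *Eya3* (0.39), *Six5* (-0.24) and *Dach1* (0.14) were smaller in size than the median of 0.55 over all genes tested. The ratio of *Six2* to *Eya1* in CPM per kilobase was 4.82 and 5.25 in the controls, 3.68 in *Eya1*cKO 1 and 1.35 in *Eya1*cKO 2.

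Genes with the most similar profile were sought among 10100 genes with at least 10 CPM in the controls, by the root-mean-square difference of log2 CPM centred on each gene's mean over the 4 libraries. Closest to *Eya1* were *Nell1* (0.22), *Ajap1* (0.27), *Etv4* (0.29), *Rps13-ps1* (0.31) and *Phf19* (0.33). Of these, *Etv4* encodes an ETS factor downstream of Gdnf-Ret and Fgf signalling and *Phf19* a Polycomb-like protein, and *Rps13-ps1*, a pseudogene, may share reads with its parent gene. Closest to *Six2* were *Fgf1* (0.20), *Hoxd12* (0.25), *Rasef* (0.28), *Gm13394* (0.48) and *Ros1* (0.52). *Fgf1*, a growth factor gene, had 459 and 533 reads in the controls against 20 and 5 in *Eya1*cKO, and so shared the low level of *Six2* in *Eya1*cKO 2. These rankings rest on 4 libraries that were compared by genotype and are given as a description.

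Other genes of the network were grouped by role. Of 14 network genes of the metanephric mesenchyme, all 14 could be tested, and 10 fell in *Eya1*cKO, 0 rose and 4 did not pass. Over all genes edgeR called 4.41% lower and 5.15% higher. The median log2 fold change was -1.56 against 0.02 over all genes. All 8 genes of the nephron progenitor list are among these 14, so the 7 calls given for that list are counted here again. In this list 12 lower genes and 1 higher gene had an unadjusted p under 0.05 in edgeR, against 14.6% and 14.2% of all genes. DESeq2 called 11 lower and 0 higher, against 6.64% and 9.29% of all genes. Among the called genes, *Gdnf*, the ligand of Ret, had the largest fall with all libraries (-2.76, SE 0.21, adjusted p = 0.001 in edgeR), followed by the homeobox gene *Uncx* (-2.61, SE 0.12, adjusted p = 0.00015), the zinc-finger gene *Osr1* (-2.40, SE 0.33, adjusted p = 0.0075) and *Pax2* (-2.20, SE 0.08, adjusted p = 7.3e-05), a paired-box factor. This order changed with the library left out. Without *Eya1*cKO 1, *Osr1* was at -3.36, *Gdnf* at -2.45 and *Uncx* at -2.80, and without *Eya1*cKO 2 *Osr1* was at -1.94. *Hoxc11*, named after its value was seen, was not called with all libraries (-1.01, adjusted p = 0.32 in edgeR). It was at -3.64 without *Eya1*cKO 1 and -0.30 without *Eya1*cKO 2. Most of the 10 calls were lost without control 1 or without control 2, in fits that hold 1 control library. *Pax2* and *Uncx* were at -2.22 and -2.67 without control 1, and at -2.21 and -2.59 without control 2. *Sall1*, named after its value was seen, was at -1.61 and -1.59. *Wt1*, a zinc-finger factor of NPCs and podocytes named after its value was seen, was at 0.23 (adjusted p = 0.13 in edgeR) with all libraries. It was at 0.32 without *Eya1*cKO 1 and 0.11 without *Eya1*cKO 2. With the replicate block 7 of the 14 were called lower, where 263 of all genes were. Several of these genes were known from the study to fall in these libraries, so the list is no independent evidence of a direction.

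Of 8 genes for cofactors of Eya and Six-family proteins, 4 fell, 0 rose and 4 did not pass, with a median of -0.34, where edgeR called 4.41% of all genes lower and DESeq2 6.64%. No higher gene had an unadjusted p under 0.05 in edgeR, and DESeq2 called 4 lower and 0 higher. *Sobp*, the mouse relative of a fly Sine oculis-binding protein, had 1318 and 1854 reads in the controls against 41 and 115 in *Eya1*cKO (log2 fold change -3.49, SE 0.45, adjusted p = 0.0066 in edgeR). The other 3 encode subunits of the SWI/SNF chromatin remodeller and fell less, with -0.73 for *Smarcc1* (adjusted p = 0.003), -0.43 for *Arid1a* (adjusted p = 0.0085) and -0.39 for *Smarca4* (adjusted p = 0.014). None of the 8 was called in edgeR without control 1 or without control 2, where *Sobp* was at -3.69 (adjusted p = 0.14) and -3.29 (adjusted p = 0.23). The size of its fall depended on the *Eya1*cKO library used, with -2.75 without *Eya1*cKO 1 and -4.61 without *Eya1*cKO 2.

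Of 6 Groucho genes, whose products bind Six-family proteins, *Tle3* fell (-0.52, SE 0.09, adjusted p = 0.014 in edgeR) and the other 5 did not pass, with a median of 0.16. Over all genes edgeR called 4.41% lower. *Tle3* was not called with a replicate block, without control 1 or without control 2 (-0.59 and -0.49, adjusted p = 0.33 and 0.47). Higher calls were 0 with edgeR, also at an unadjusted p under 0.05, and 0 with DESeq2. Over all genes these shares were 5.15%, 14.2% and 9.29%. Without *Eya1*cKO 1, *Tle4* was at 0.28 and *Tle6* at -1.90, and without *Eya1*cKO 2 they were at 0.09 and 1.10. Both were named after their values were seen. Of 9 Ski family genes and Dach corepressor partners, 8 were tested and edgeR called 0 in either direction, with a median of 0.05. Here 1 lower gene had an unadjusted p under 0.05 in edgeR, against 14.6% of all genes. DESeq2 called 1 lower, against 6.64% of all genes. In both cases this was *Sin3a* (-0.41, SE 0.11, adjusted p = 0.066 in edgeR), named after its value was seen. It was at -0.55 without *Eya1*cKO 1 and -0.33 without *Eya1*cKO 2. *Skor2*, a relative of Dach1 in the Ski family, had no read in any library. Of 4 genes for substrates of the Eya phosphatases, *H2afx*, for the histone variant H2AX, fell (-0.60, SE 0.09, adjusted p = 0.0085 in edgeR), where 4.41% of all genes were called lower. *H2afx* was not called without control 1 or without control 2 (-0.60 and -0.64). The other 3, named after their values were seen, did not pass, with -0.50 for *Myc* (adjusted p = 0.09), 0.14 for *Notch1* (adjusted p = 0.3) and 1.44 for *Esr2* (adjusted p = 0.29), and the list had a median of -0.18. DESeq2 called 1 lower and 0 higher, against 6.64% and 9.29% of all genes. At an unadjusted p under 0.05 in edgeR 0 were higher, against 14.2% of all genes. *Myc* was at -0.54 without *Eya1*cKO 1 and -0.50 without *Eya1*cKO 2. *Esr2* was at 0.24 without *Eya1*cKO 1 and 1.94 without *Eya1*cKO 2.

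Markers of other cell types moved with the genotype, and their part in the results for the 9 genes was not tested. In edgeR 5.15% of all genes were called higher and 4.41% lower, and such calls are counted here as rises and falls. All 6 podocyte genes rose, from summed levels of 505 and 515 CPM in the controls to 2357 and 2352 CPM in *Eya1*cKO. The 6 adrenal cortex genes rose from 18.7 and 11.4 to 677 and 653 CPM and the 6 sympathoadrenal genes from 4.61 and 8.39 to 506 and 534 CPM, and all 6 endothelial genes rose, from 516 and 526 to 878 and 924 CPM. Of 6 stroma genes 4 rose and 1 fell (1639 and 1624 against 3123 and 3376 CPM), of 6 neuronal genes 3 rose and 1 fell (40.9 and 45.6 against 74.8 and 82.3 CPM), and of 6 renal vesicle and tubule genes 4 fell and 0 rose (768 and 762 against 447 and 508 CPM). In the ureteric bud list 1 of 6 rose and 1 fell (140 and 146 against 148 and 120 CPM). Of 6 Schwann and neural crest genes 4 were tested and 1 rose (28.0 and 26.4 against 32.2 and 28.7 CPM). Skeletal muscle genes were low, with 2 of 6 tested, 0 called, and sums of 2.92 and 1.79 against 6.64 and 2.45 CPM; *Myf5* was at 0 in every library and *Myod1* at 0 in 3 of the 4. Other genes of this list had reads in single *Eya1*cKO libraries, with 65 for *Myog* and 85 for *Actn2* in *Eya1*cKO 1 and 0 in *Eya1*cKO 2, and 30 for *Myf6* in *Eya1*cKO 2 and 0 in *Eya1*cKO 1, named after their values were seen. In the controls *Myog* had 0 and 2 reads, *Actn2* 64 and 52, and *Myf6* none.

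**Figure D4:**
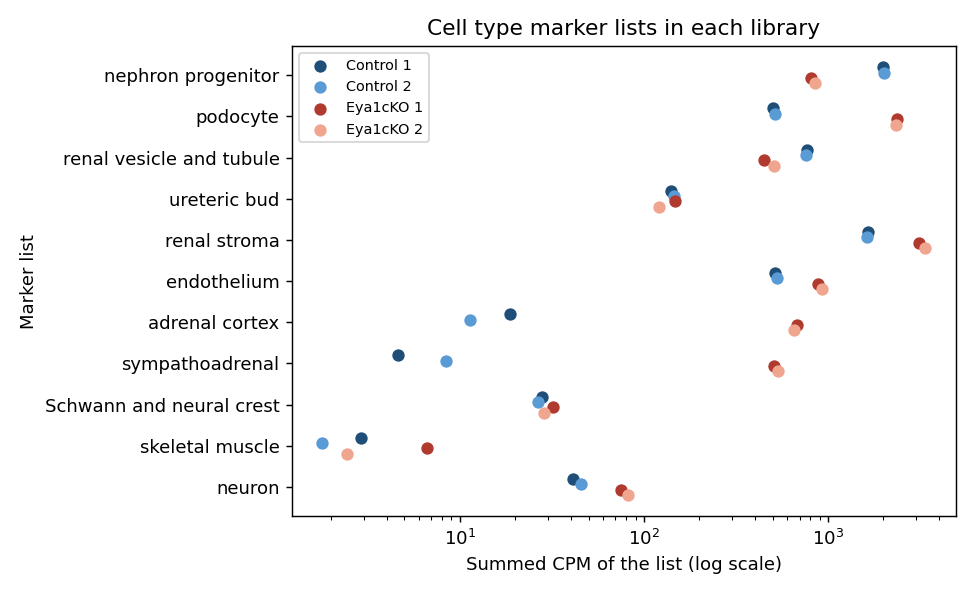
Summed CPM of each cell type marker list on a log scale, 1 point per library (blue, controls; red, *Eya1*cKO). The nephron progenitor list lies at 1984 and 2023 CPM in the controls against 805 and 847 CPM in *Eya1*cKO, and the podocyte, adrenal cortex and sympathoadrenal lists lie to the right of the controls in *Eya1*cKO.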

How the data were processed

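The authors mapped single-end 75-base reads of strand-specific SMARTer libraries to mm10 with HISAT2 and deposited the raw read counts per Ensembl release 90 gene from HTSeq-count, 1 file per library. HTSeq's rows that name no gene, among them reads on no gene (12.9% to 13.9% of reads in the controls, 20.9% to 22.7% in *Eya1*cKO) and unaligned reads (6.32% and 6.69%, 12.9% and 12.7%), stayed out of totals and tests. Tool versions and the strand setting are not given in the sources used here. Of 52636 gene identifiers, 52403 were paired with a symbol. Positions and exon lengths were taken from GENCODE M21, on GRCm38, the same build as mm10 but a later annotation.

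Counts were analysed with R 4.3.3 and edgeR 4.0.16. Genes were kept by filterByExpr (minimum count 10), scaled by TMM and tested with glmQLFit and glmQLFTest (legacy = FALSE) over 19041 genes, with Benjamini-Hochberg adjustment at 0.05. The SE was obtained by dividing the size of the log2 fold change by the root of F. DESeq2 1.42.0 was an alternative, beside other scalings, filters and tests, thinning of all libraries to the smallest total of gene counts, leaving out each library and a replicate block.

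The members and the partner and marker lists were chosen with earlier results of these data known. All members are named, from each partner list up to 4 called genes with the largest change, and the 5 genes closest to *Eya1* and to *Six2* in profile. *Myod1*, *Myf5* and *Skor2* were named as undetected or nearly so. Authors' ChIP-seq data were not analysed here.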

Additional observations from a re-analysis of the deposited data

How the results depend on the processing

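With DESeq2's size factors, library totals alone, a stricter filter, robust fitting or libraries thinned to the smallest total of gene counts, the same members were called as in the fit reported, and no member changed direction in any alternative that used all 4 libraries. The counts of all genes called lower (839) and higher (981) were 507 and 548 without the low-count filter, 1298 and 1815 with DESeq2's Wald test, 515 and 581 with the legacy quasi-likelihood method and 263 and 358 with the replicate block, and 580 were called lower and 606 higher after thinning to the smallest total of gene counts. With 1 library left out, the count called lower ran from 7 to 3482 and the count called higher from 15 to 4443, since the lone library is assumed to vary like those of the other genotype. In the same fits members called lower ran from 2 to 6 and members called higher from 0 to 1, and *Six5* ran from -0.01 (without *Eya1*cKO 1) to 0.22 and *Dach2* from -1.05 to 0.06 (without control 1). Whether same-numbered libraries were handled together is not stated. Their deviations from the genotype means had a correlation of 0.0062 over 19041 genes, which cannot settle this. The replicate block took the call of *Eya2* (-1.87, adjusted p = 0.081 in edgeR) and changed no other call among the 9 genes. With coding length in place of exon length, *Eya1* made up 45.6% of the Eya sum and *Six2* 85.6% of the Six-family sum in the controls. *Dach2* had few reads, 65 to 344 per library.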
